A study of Mus musculus with 4 samples.

Results

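Immediate early genes are transcribed within minutes of a stimulus, without the need for new protein synthesis, and they are widely used as markers of recently active neurons. The 10 genes described here are Fos, Fosb, Junb, Egr1, Egr3, Arc, Npas4, Nr4a1, Fosl2 and Nptx2, out of 31053 genes in the count tables, and each had UMIs (unique molecular identifiers, 1 per captured transcript) in all 4 libraries. The genes were chosen by name with their earlier AAV-VEGF-C to AAV-CTRL ratios of CPM (UMIs of a gene, scaled to 1000000 UMIs in all) in view, so the ratios below are a description and support no claim about the choice of genes. In neurons, calcium entry and the MAP kinase cascade act on CREB and SRF bound at the promoters of these genes, and the first proteins made (AP-1 and EGR factors, NPAS4, NR4A1) go on to regulate effector genes at synapses. Several of them, among them Fos, Junb, Fosl2, Egr1 and Nr4a1, also respond to growth factors and stress in endothelial and glial cells.

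The libraries came from 8-week-old male C57BL/6J mice that had received AAV9 into the cisterna magna several weeks earlier. AAV-VEGF-C carried the mouse lymphatic growth factor VEGF-C, and AAV-CTRL a soluble part of its receptor VEGFR3 fused to immunoglobulin that does not bind VEGF-C. Brains of several mice were pooled for each virus, and nuclei were isolated from frozen tissue labelled cortex or striatum. There was thus 1 library for each virus and region (AAV-CTRL and AAV-VEGF-C labelled cortex, then AAV-CTRL and AAV-VEGF-C labelled striatum, the order in which 4 values are given below), so no spread between mice can be measured, no test was possible, and every interval given here is a 95% interval for counting error only; PCR duplicates are removed by the UMIs, but differences between tissue pieces and library preparations are not covered.

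After removal of doublets, 16185, 18908, 21368 and 16430 nuclei were kept in that order of libraries, with 57741011 to 69758946 UMIs per library. Neuronal nuclei numbered 9724, 11541, 10459 and 8405, with a median of 4360.5, 4511, 3878 and 4635 UMIs, and non-neuronal nuclei 6345, 7269, 10449 and 7875. The region labels went against the cells found: striatal projection neuron-like nuclei made up 7.33% and 7.96% of the nuclei in the libraries labelled cortex but 1.90% and 1.86% in those labelled striatum, where subcortical glutamatergic neuron-like nuclei made up 31.9% and 36.7%. The label names are kept below as names of libraries. At most 118 cell barcodes were shared by any pair of libraries.

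The promoters of 6 of the 10 genes were at hand from RefSeq (GRCm38.p6): Fos, Fosb, Junb, Npas4, Nr4a1 and Fosl2. They are shown because CREB is a known regulator of several of these genes in active neurons. The 250 bases upstream of the start site of 4 of them are printed 5′ to 3′ on the strand of the gene, with the core of the cAMP response element (CRE, the site bound by CREB), TGACG or its reverse complement CGTCA, in capitals.
Fos (chr12:85473640-85473889, plus strand): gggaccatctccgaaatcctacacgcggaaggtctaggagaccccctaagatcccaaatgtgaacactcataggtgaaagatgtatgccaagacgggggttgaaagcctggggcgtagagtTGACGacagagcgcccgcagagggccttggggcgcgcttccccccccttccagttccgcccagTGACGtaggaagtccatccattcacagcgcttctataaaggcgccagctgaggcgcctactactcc
Npas4 (chr19:4989972-4990221, minus strand): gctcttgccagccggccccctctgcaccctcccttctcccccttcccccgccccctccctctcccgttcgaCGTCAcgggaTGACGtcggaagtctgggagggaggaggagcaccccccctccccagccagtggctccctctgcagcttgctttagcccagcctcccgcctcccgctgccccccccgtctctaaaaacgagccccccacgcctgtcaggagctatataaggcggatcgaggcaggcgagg
Nr4a1 (chr15:101266596-101266845, plus strand): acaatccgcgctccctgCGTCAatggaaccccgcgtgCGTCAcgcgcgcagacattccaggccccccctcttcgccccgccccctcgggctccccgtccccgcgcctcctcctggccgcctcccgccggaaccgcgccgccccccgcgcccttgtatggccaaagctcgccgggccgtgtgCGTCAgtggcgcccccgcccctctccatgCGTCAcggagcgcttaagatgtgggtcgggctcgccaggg
Fosl2 (chr5:32136222-32136471, plus strand): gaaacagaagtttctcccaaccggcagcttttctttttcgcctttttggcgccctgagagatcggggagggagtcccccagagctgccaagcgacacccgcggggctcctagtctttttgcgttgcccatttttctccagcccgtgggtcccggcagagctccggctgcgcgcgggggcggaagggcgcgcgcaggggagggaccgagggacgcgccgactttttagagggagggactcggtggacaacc
Both strands of the window from 250 bases before to 50 bases after the start site were searched. The CRE core stood in 5 of the 6 promoters, with 2 matches in Fos and Npas4, 4 in Nr4a1, 1 in Fosb and Junb and 0 in Fosl2, against 20.8% of 32851 mouse promoters. The 4 matches in Nr4a1 began 233, 213, 69 and 40 bases before the start site. The EGR site (GCG, then G or T, then GGGCG), which EGR1 and EGR3 bind, was in 3 of the 6 (Fosb, Fosl2 and Nr4a1) and in 3.47% of all promoters. The full CRE (TGACG directly followed by TCA, which contains the core), the AP-1 site (TGACTCA or TGAGTCA) and the CArG box of SRF (CC, 6 of A or T, GG) were in 0 of the 6, and in 1.79%, 5.20% and 1.63% of all promoters. A match is a match of letters in this window, and no binding was measured.

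Immediate early gene UMIs were found in every class of nuclei. The level in oligodendrocyte-like nuclei, which are not known for neuronal activity genes, is used as a stand-in for RNA that reaches nuclei from elsewhere. It is called background below. Stray RNA was not measured by itself, and any UMIs that oligodendrocyte-like nuclei made themselves would be counted in this level. Summed over the 10 genes, 100 neuronal nuclei held 216 (95% interval 213 to 219), 213 (210 to 215), 52.6 (51.2 to 54.0) and 63.2 (61.5 to 64.9) UMIs. The same number of oligodendrocyte-like nuclei held 121, 100.2, 24.6 and 23.9 UMIs. Neuronal nuclei thus carried 1.78 (1.70 to 1.86), 2.12 (2.03 to 2.22), 2.14 (1.99 to 2.30) and 2.64 (2.45 to 2.85) times as many, while their median total of UMIs was also higher, at 4360.5 against 1643.5 in cortex AAV-CTRL. Scaled to total UMIs the order turned round: the genes summed to 467 CPM in neuronal and 633 CPM in non-neuronal nuclei of cortex AAV-CTRL, and to 446 and 533, 123 and 139, and 125 and 118 CPM in the other libraries in the same order, with neuronal nuclei above only in striatum AAV-VEGF-C.

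The genes differed in how far neuronal nuclei stood above this level. Npas4, a transcription factor induced by calcium entry almost exclusively in neurons, held 7.05, 7.73, 2.36 and 3.30 UMIs per 100 neuronal nuclei in the same order of libraries. The oligodendrocyte-like level of Npas4 was 1.23, 1.35, 0.436 and 0.394, a ratio of 5.72 (3.75 to 9.19), 5.73 (3.93 to 8.67), 5.42 (3.27 to 9.63) and 8.36 (4.81 to 15.9). Nr4a1, an orphan nuclear receptor induced by activity, was similar, with ratios of 4.93, 5.67, 6.05 and 6.07. Egr1, a zinc-finger factor with high constitutive expression in cortex, stood at only 1.26 (1.19 to 1.34), 1.60 (1.51 to 1.71), 1.54 (1.38 to 1.72) and 1.97 (1.74 to 2.23) times the oligodendrocyte-like level. Arc, a synaptic protein that shapes AMPA receptor traffic, was 2.13 and 3.06 times as high in neuronal nuclei of the libraries labelled cortex. In those labelled striatum its ratio was 0.977 (0.767 to 1.254) and 1.10 (0.860 to 1.43), with a UMI in 2.21% and 2.56% of neuronal against 2.42% and 2.58% of oligodendrocyte-like nuclei, so the mean of Arc over all neuronal nuclei there cannot be told from background. It was above it in striatal projection neuron-like nuclei, with 7.62 and 8.52 UMIs per 100 nuclei, 3.04 (1.96 to 4.61) and 3.27 (2.02 to 5.12) times the oligodendrocyte-like level.

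**Figure D1:**
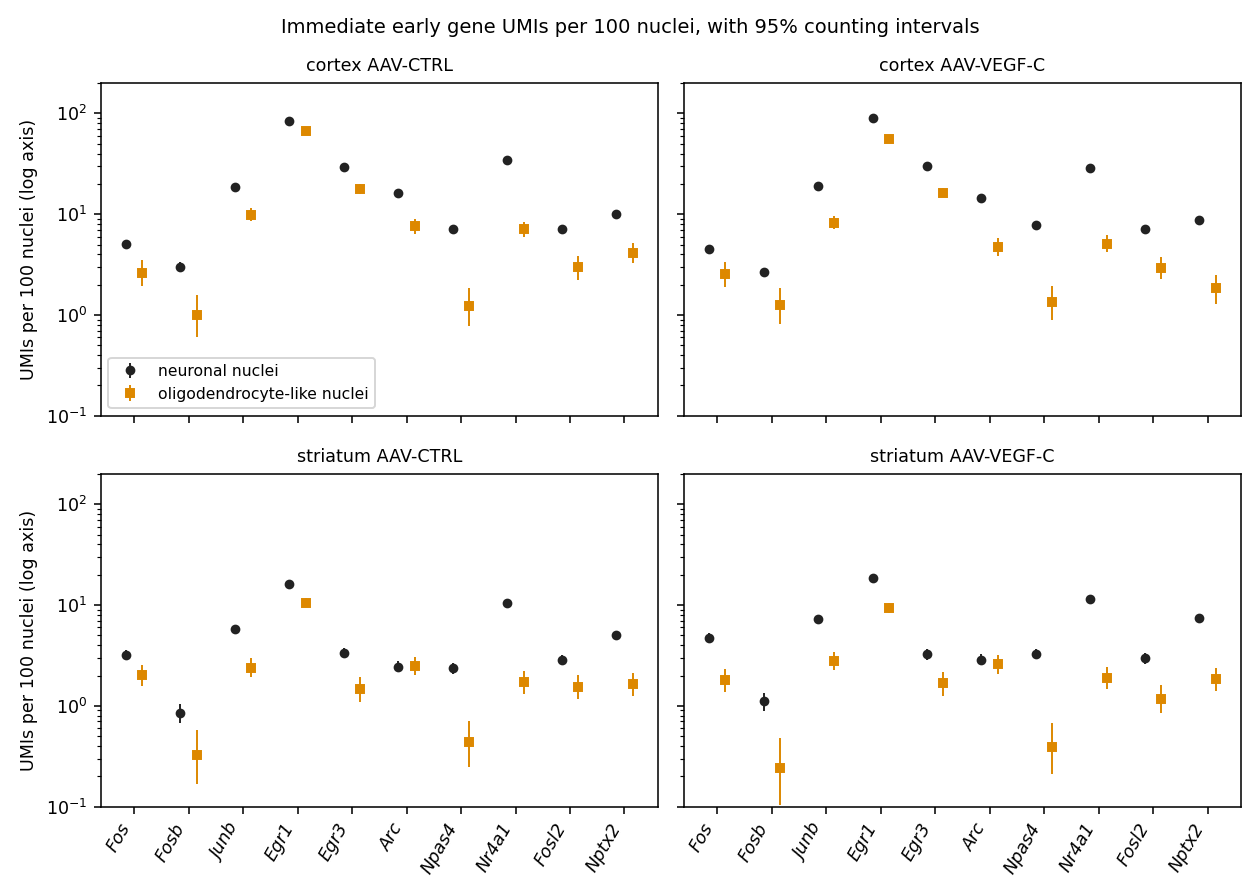
UMIs of each of the 10 genes per 100 nuclei (log axis) in neuronal nuclei (black circles) and oligodendrocyte-like nuclei (orange squares), 1 panel per library, with 95% counting intervals as bars. Npas4 and Nr4a1 show the widest gaps between the symbols in every panel, Egr1 a narrow gap, and Arc in the striatum panels none beyond its intervals.

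At matched depth, with every nucleus thinned to 1000 UMIs, the share of neuronal nuclei with a UMI exceeded that of oligodendrocyte-like nuclei in all 4 libraries for Npas4 and Nr4a1 only. For Npas4 the thinned shares were 1.42% against 0.813%, 1.52% against 0.695%, 0.525% against 0.143% and 0.662% against 0.184%. For Nr4a1 they were 6.98% against 3.66%, 5.74% against 2.78%, 2.07% against 0.942% and 2.23% against 0.735%. Egr1 was below the oligodendrocyte-like share in all 4, at 20.1% against 33.1% in cortex AAV-CTRL, where 53.6% and 48.0% of the nuclei had a UMI before thinning. The other 7 genes were above in some libraries and below in others. Thinning takes a larger part of the UMIs from the deeper neuronal nuclei, stray ones included. A neuronal share below the oligodendrocyte-like one therefore cannot show that the gene was at background in neurons.

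The mix of the genes differed between neurons and glia as well. Per 100 Egr1 UMIs, oligodendrocyte-like, astrocyte-like and microglia-like nuclei of cortex AAV-CTRL held 10.5, 10.1 and 10.7 Nr4a1 UMIs, and those of cortex AAV-VEGF-C 9.16, 7.30 and 6.31. Excitatory neuron-like nuclei of these libraries held 46.4 and 36.7. For Npas4 the glial values lay between 1.84 and 2.57 in both libraries and the excitatory ones at 8.73 and 8.63. The glial classes thus lay closer to each other than to excitatory neuron-like nuclei for both genes, and the source of the glial UMIs was not tested.

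In neuronal nuclei of the cortex libraries, none of the 10 genes passed a 1.495-fold limit (a log2 ratio of 0.58 with at least 50 UMIs in the pair): 0 were higher and 0 lower in AAV-VEGF-C, where 1.21% of 17399 genes were higher and 1.17% lower. The median log2 ratio of the 10 was -0.13, beside 0.0095 over all genes tested, and 8 of the 10 values were below 0. Nr4a1 was at 75.4 CPM (72.9 to 78.0) in AAV-CTRL and 60.7 CPM (58.7 to 62.8) in AAV-VEGF-C, a log2 ratio of -0.31 (-0.38 to -0.24), the furthest from 0. It was lower in AAV-VEGF-C in all 5 depth classes of neuronal nuclei, with log2 ratios of -0.04, -0.44, -0.28, -0.32 and -0.30 from the shallowest (under 1000 UMIs) to the deepest (8000 or more), and the interval of the shallowest class included 0.

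The AP-1 subunits, which pair as FOS and JUN proteins, had log2 ratios from -0.23 (Fosb) to -0.03 (Junb). Fos stood at 10.9 CPM in AAV-CTRL and 9.54 in AAV-VEGF-C (log2 ratio -0.19, -0.37 to -0.01), from 489 and 525 UMIs. By depth class its log2 ratios were 0.42, -0.09, -0.64, -0.07 and -0.07, from the shallowest to the deepest. Of these, the class from 2000 to under 4000 UMIs alone had an interval that excluded 0 (-1.07 to -0.20). Fosb, which also yields the long-lived ΔFosB, was at 6.51 and 5.54 CPM (-0.23, -0.47 to 0.0044). Fosl2 (FRA2) and Junb had intervals across 0, with 15.6 and 14.8 CPM (-0.07) and 40.4 and 39.5 CPM (-0.03). Both EGR factors were almost level between the viruses, Egr1 at 183 and 188 CPM (0.03, -0.0096 to 0.07) and Egr3, a target of EGR1 in some neurons, at 63.1 and 63.0 CPM (-0.0016).

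Npas4 was the highest ratio, with 15.3 and 16.2 CPM and an interval across 0 (0.08, -0.06 to 0.23). The 2 synaptic effectors were lower in AAV-VEGF-C on the CPM scale, though not above the oligodendrocyte-like level, as given below: Arc was at 34.9 and 30.6 CPM (-0.19, -0.29 to -0.09). Nptx2, a secreted pentraxin that gathers AMPA receptors at excitatory synapses on interneurons, was at 21.8 and 18.2 CPM (-0.26, -0.39 to -0.13). The intervals of Fos, Arc, Nr4a1 and Nptx2 thus lay below 0. Genes outside the 10 also had intervals that excluded 0 in these nuclei, such as Homer1 (-0.17, -0.20 to -0.14) and Jund (0.19, 0.12 to 0.26). The share of all genes with such an interval was not computed.

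In neuronal nuclei of the striatum libraries, again 0 genes were higher and 0 lower past the limit, against 2.1% and 2.16% of 17684 genes. The median log2 ratio was 0.03, beside 0.02 over all genes, with 5 values on each side of 0. Fos was at 7.57 CPM (6.78 to 8.42) in AAV-CTRL and 9.37 CPM (8.47 to 10.3) in AAV-VEGF-C, a log2 ratio of 0.31 (0.10 to 0.52). Nptx2 gave the same ratio, 0.31 (0.14 to 0.48), from 11.97 and 14.81 CPM. By depth class its log2 ratios were -0.73, 0.32, 0.14, 0.20 and 0.71, from the shallowest to the deepest. Only the deepest class, at 8000 UMIs or more, had an interval that excluded 0 (0.37 to 1.07). Npas4 followed with 5.55 and 6.50 CPM (0.23, -0.02 to 0.48). On the other side, Egr3 was at 7.86 and 6.39 CPM (-0.30, -0.53 to -0.07) and Fosl2 at 6.76 and 5.85 CPM (-0.21, -0.46 to 0.04). The remaining 5 lay between -0.09 (Nr4a1, 24.4 and 22.9 CPM) and 0.13 (Fosb, 2.00 and 2.18 CPM), each with an interval across 0, with Junb at 13.6 and 14.3 CPM, Egr1 at 38.0 and 36.8 CPM and Arc at 5.75 and 5.68 CPM. Fos and Nptx2 were thus lower in AAV-VEGF-C in the one pair of libraries and higher in the other. Whether the pairs differ was not tested. The contrast for Nptx2 holds on the CPM scale and per nucleus but not above the oligodendrocyte-like level. Classes differed in number in the striatum pair, with 308 and 88 excitatory neuron-like and 440 and 30 neuroblast-like nuclei. They held 35 and 11, and 24 and 1, of the Egr3 UMIs, and 44 and 9, and 24 and 0, of the Fosl2 UMIs. The part of this mix in the neuronal ratios was not tested.

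**Figure D2:**
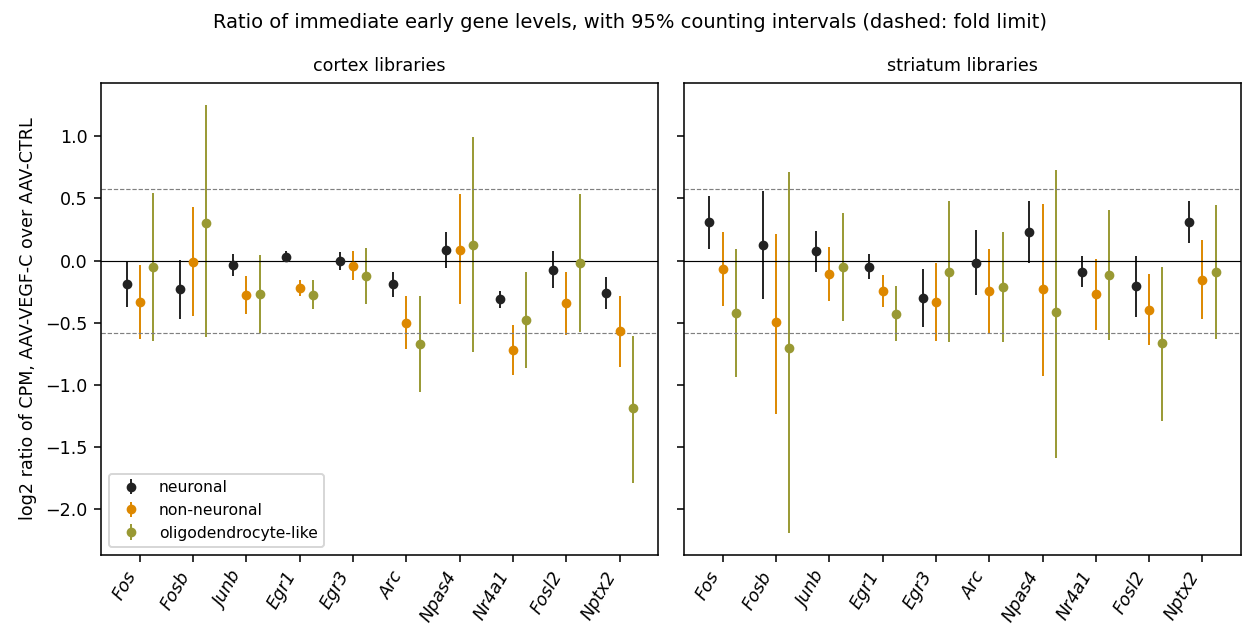
Log2 ratio of CPM, AAV-VEGF-C over AAV-CTRL, of the 10 genes in neuronal (black), non-neuronal (orange) and oligodendrocyte-like nuclei (olive), with 95% counting intervals as bars and the fold limit dashed. The neuronal values lie within the limits in both panels, while in the cortex panel Nr4a1 of non-neuronal and Arc and Nptx2 of oligodendrocyte-like nuclei lie beyond, as do Fosb and Fosl2 of oligodendrocyte-like nuclei in the striatum panel.

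These directions depended on how the background and the depth were treated. Counted as UMIs per neuronal nucleus, with no scaling to total UMIs, the median log2 ratio was -0.08 in the cortex and 0.28 in the striatum libraries, where the AAV-VEGF-C nuclei were deeper. With the oligodendrocyte-like UMIs per nucleus of the same library taken off, it was 0.17 in the cortex libraries, turning from below to above 0, and 0.59 in the striatum libraries, where Arc gave no value because AAV-CTRL neurons were below the oligodendrocyte-like level. The subtraction assumes the same number of stray UMIs in a neuronal and an oligodendrocyte-like nucleus, which was not tested. Egr1 moved most in the cortex libraries: the oligodendrocyte-like level was 67.1 UMIs per 100 nuclei in AAV-CTRL and 55.8 in AAV-VEGF-C, the neuronal level 84.7 and 89.5, so that 17.6 and 33.7 remained (log2 ratio 0.94, SE 0.19). Arc and Nptx2 turned from lower to higher in AAV-VEGF-C: Arc had 8.54 and 9.82 UMIs per 100 nuclei remaining (0.20, SE 0.16) and Nptx2 5.90 and 6.84 (0.21, SE 0.17). Junb (0.27, SE 0.17) and Egr3 (0.27, SE 0.18) turned as well, and Fos (-0.26, SE 0.40), Fosb (-0.52, SE 0.37) and Fosl2 (-0.03, SE 0.23) did not. Nr4a1 kept its sign, with 27.7 and 23.8 UMIs per 100 nuclei remaining (-0.22, SE 0.06). In the striatum libraries Fos had 1.21 and 2.93 UMIs per 100 nuclei remaining (1.28, SE 0.39), Nptx2 3.46 and 5.66 (0.71, SE 0.16) and Npas4 1.93 and 2.90 (0.59, SE 0.18). Fos, Nptx2 and Npas4 in these libraries were higher in AAV-VEGF-C on all 3 scales, whereas Egr1 (0.70, SE 0.20), Nr4a1 (0.16, SE 0.09) and Fosl2 (0.43, SE 0.36) turned from lower to higher and Egr3 stayed lower (-0.26, SE 0.34).

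In non-neuronal nuclei of the cortex libraries, 9 of the 10 genes were lower in AAV-VEGF-C, with a median log2 ratio of -0.31 beside -0.02 over all genes. Nr4a1 was at 41.5 CPM (38.0 to 45.3) and 25.2 CPM (22.6 to 27.9), a log2 ratio of -0.72 (-0.92 to -0.52), and was the 1 gene of the 10 lower past the limit, against 1.86% of 15451 genes; 0 were higher, against 0.913%. Nptx2 (18.8 and 12.7 CPM, -0.57) and Arc (32.3 and 22.8 CPM, -0.50) came next, within the limit. Npas4 was level, with 6.50 and 6.91 CPM (0.09, -0.35 to 0.53). In the striatum libraries 0 genes were higher and 0 lower past the limit, against 1.62% and 3.25% of 16443 genes, with all 10 ratios below 0 and a median of -0.25. Their lowest value was that of Fosb, at 2.17 and 1.53 CPM (-0.50, -1.24 to 0.22), from 44 and 28 UMIs. With the limit set at a log2 ratio of 0.32, 5 of the 10 genes were lower in the non-neuronal cortex nuclei, against 7.53% of genes, and 3 in the striatum libraries, against 8.92%; at a limit of 1, 0 were lower in the cortex libraries, against 0.181%.

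Over all kept nuclei, 0 of the 10 genes passed the limit in either direction in either pair, where 1.07% of genes were higher and 1.46% lower in the cortex libraries and 1.89% and 2.61% in the striatum libraries. At the limit of 0.32, 1 was lower in the cortex libraries, against 6.04%. The medians were -0.16 and -0.11. With the mix of classes held at the mean of a pair, every ratio kept its sign except that of Junb in the striatum libraries, which moved from -0.0018 to 0.03. Egr3 in the striatum libraries moved from -0.31 to -0.21 and Fosl2 from -0.27 to -0.16.

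Among glial classes the summed level stayed near that of oligodendrocyte-like nuclei. Astrocyte-like nuclei held 0.961, 1.02, 0.929 and 1.02 times, and microglia-like nuclei 1.03, 1.02, 1.12 and 1.2 times, as many UMIs per nucleus, each with an interval that includes 1. Endothelial-like nuclei stood above it, at 1.13 (1.05 to 1.22), 1.18 (1.09 to 1.27), 1.53 (1.37 to 1.72) and 1.77 (1.56 to 2.00) times. Junb and Fosl2 were above it in all 4 libraries: Fosl2 held 7.95, 6.62, 5.31 and 8.94 UMIs per 100 endothelial-like nuclei against 2.97, 2.94, 1.55 and 1.18 in oligodendrocyte-like ones, and Junb 16.3, 13.7, 8.85 and 9.52 against 9.87, 8.24, 2.40 and 2.79. Arc and Nptx2 gave ratios from 0.356 to 1.41 in the same nuclei.

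Nr4a1 in endothelial-like nuclei of the cortex libraries was at 51.4 CPM from 97 UMIs in AAV-CTRL and 19.4 CPM from 40 UMIs in AAV-VEGF-C, a log2 ratio of -1.41 (-1.98 to -0.86). In UMIs per 100 nuclei it was 12.05 (9.77 to 14.7), above the oligodendrocyte-like 7.06, in AAV-CTRL, and 4.49 (3.21 to 6.11) beside 5.11 in AAV-VEGF-C. The striatum libraries gave 12.7 and 8.82 CPM from 32 and 20 UMIs (-0.53, -1.41 to 0.32). Nr4a1 was also lower in AAV-VEGF-C in oligodendrocyte-like (39.9 and 28.7 CPM, -0.48) and microglia-like nuclei (49.8 and 25.3 CPM, -0.98) of the cortex libraries, and Nptx2 in oligodendrocyte-like nuclei (23.4 and 10.3 CPM, -1.19, -1.79 to -0.60). The neuronal level of the same genes was lower in the same library, and the part of stray neuronal RNA in the glial values was not tested.

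Of the neuronal classes, excitatory neuron-like nuclei of the cortex libraries carried 245 and 244 UMIs of the 10 genes per 100 nuclei, 2.02 and 2.43 times the oligodendrocyte-like level. Their highest subtype was the Rorb layer 4/5 type, named for a nuclear receptor of input-layer neurons, with 325 (315 to 335) and 338 (328 to 347) UMIs per 100 nuclei. The Cux2 layer 2/3 type followed with 289 and 285 and the Hs3st4 Foxp2 layer 6 type with 271 and 258, while the Tshz2 deep-layer type held 173 and 150. Summed over the 10 genes, interneuron-like nuclei were close to the background. They stood at 1.247 and 1.244 times the oligodendrocyte-like level for the Sst/Pvalb class and 1.35 and 1.36 times for the Vip/Lamp5 class. Their median depth (4733 and 4706 UMIs in the Sst/Pvalb class) was nevertheless that of excitatory nuclei. The genes differed here too: Nr4a1 stood at 3.27 (2.26 to 4.66) and 3.25 (2.18 to 4.74) times the oligodendrocyte-like level in the Sst type. In the Vip type it was at 4.39 (2.93 to 6.42) and 3.44 (2.13 to 5.37) times. Egr1 was at 0.921 and 1.28 times in the Sst type and 1.24 and 1.30 times in the Vip type.

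In excitatory neuron-like nuclei some ratios were near those of all neuronal nuclei. Nr4a1 was at 93.0 and 76.4 CPM (-0.28, -0.36 to -0.20), Arc at 44.3 and 39.0 CPM (-0.18) and Egr1 at 200.3 and 208 CPM (0.06, 0.0043 to 0.11). Fos differed from all neuronal nuclei, with an interval across 0 (-0.06, -0.29 to 0.16). Junb (0.05) and Egr3 (0.02) lay above 0 in this class, also with intervals across 0. Egr1 in the Rorb layer 4/5 type was at 193 and 229 CPM (0.25, 0.15 to 0.35), while Nr4a1 was at 111 and 92.9 CPM (-0.25, -0.39 to -0.11). In Sst/Pvalb interneuron-like nuclei the median log2 ratio of the 10 genes was -0.33, with Npas4 alone above 0 (0.06, -0.95 to 1.09). The median over all genes was not computed for this class. Junb there was at 35.6 and 23.5 CPM (-0.60, -1.04 to -0.17) and Nr4a1 at 37.7 and 24.1 CPM (-0.65, -1.08 to -0.23). The subtypes differed for Junb, with -0.88 (-1.53 to -0.24) in the Pvalb type and 0.11 (-0.63 to 0.88) in the Sst type. Nr4a1 was at -0.58 (-1.28 to 0.11) and -0.47 (-1.14 to 0.20) in these types. The oligodendrocyte-like level was also lower in AAV-VEGF-C, at 121 and 100.2 UMIs per 100 nuclei. Relative to it the summed level of the Sst/Pvalb class as a whole was the same in both libraries (1.247 and 1.244 times). By subtype it was 1.24 (1.09 to 1.41) and 1.47 (1.31 to 1.65) times in the Sst type. The Pvalb type gave 1.26 (1.13 to 1.40) and 1.19 (1.07 to 1.33) times.

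Striatal projection neuron-like nuclei, the GABAergic output cells of the striatum, stood far above background in the libraries labelled striatum: 103 (93.1 to 113) and 146 (132 to 160) UMIs per 100 nuclei, 4.18 and 6.08 times the oligodendrocyte-like level, in 407 and 305 nuclei. The 308 excitatory neuron-like nuclei of striatum AAV-CTRL held more than the projection neuron-like nuclei of that library, 137 (124 to 151), 5.57 times (4.95 to 6.26). Projection neuron-like nuclei of the D2 type, marked by the dopamine receptor Drd2, reached 164 (142 to 188) and 222 (194 to 253), 6.65 and 9.28 times, while the D1 type of striatum AAV-CTRL held 62.0 (49.2 to 77.2), 2.52 times (1.98 to 3.17). In the libraries labelled cortex the class held 179 and 199, or 1.47 and 1.98 times. Its summed log2 ratio of CPM was 0.24 (0.05 to 0.44) in the striatum and 0.07 (-0.0068 to 0.15) in the cortex libraries. Fos in this class was at 6.17 and 12.6 CPM in the striatum libraries from 12 and 22 UMIs (1.03, -0.05 to 2.18), and at 12.2 and 7.43 CPM in the cortex libraries (-0.72, -1.27 to -0.17).

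Most neuronal nuclei of the striatum libraries were subcortical glutamatergic neuron-like, and there the genes summed to 107 and 115 CPM (log2 ratio 0.11, 0.03 to 0.18), with 8 of 10 values above 0. Npas4 was at 3.72 and 5.07 CPM (0.45, 0.08 to 0.82), Nptx2 at 14.2 and 17.2 CPM (0.28, 0.09 to 0.48) and Junb at 10.3 and 12.4 CPM (0.27, 0.04 to 0.49). Egr3 went the other way, with 5.71 and 4.23 CPM (-0.43, -0.78 to -0.09). In subcortical GABAergic neuron-like nuclei Fos was at 6.99 and 14.0 CPM (1.00, 0.36 to 1.67) and Arc at 5.68 and 9.57 CPM (0.75, 0.0095 to 1.52), from 32 and 60 and from 26 and 41 UMIs. The 146 and 131 cerebellar granule neuron-like nuclei held 1 and 13 Fos UMIs (3.57, 0.83 to 8.98) and 1 and 14 Nr4a1 UMIs (3.67, 0.96 to 9.07). Junb (-0.72) and Egr1 (-0.03) had intervals across 0 in that class.

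**Figure D3:**
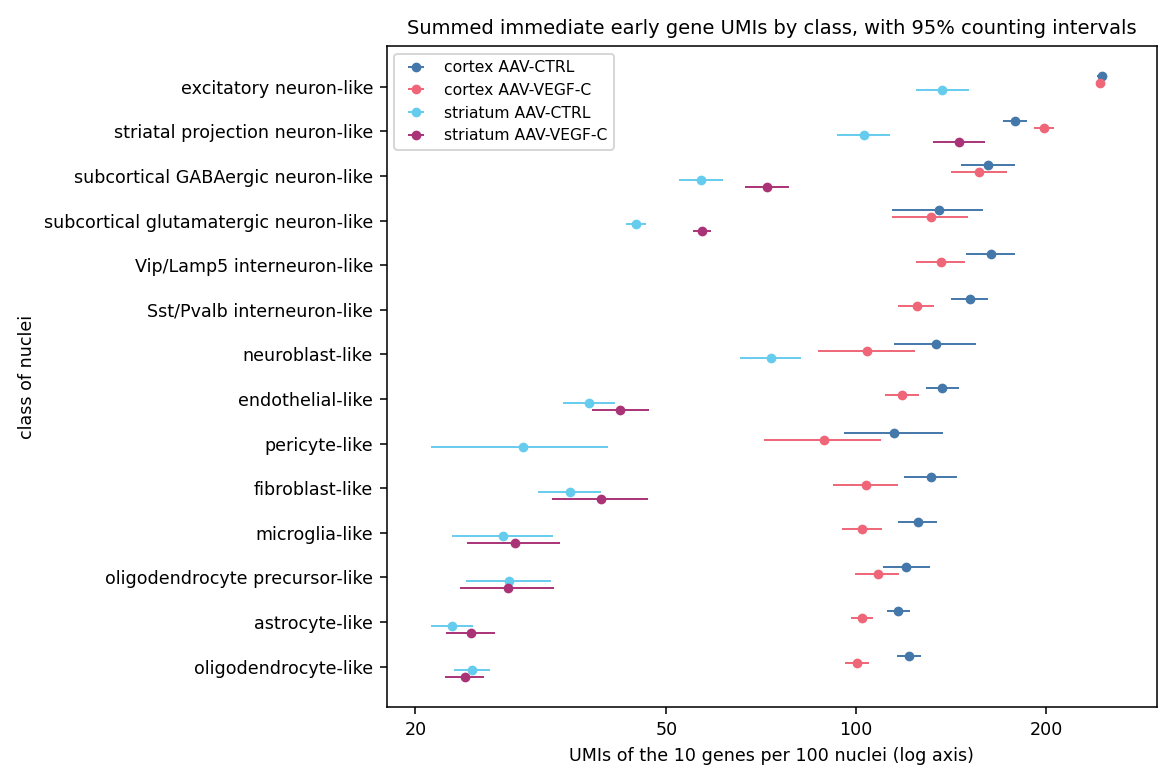
UMIs of the 10 genes per 100 nuclei (log axis) in each named class, 1 colour per library, with 95% counting intervals as bars; classes under 100 nuclei in a library have no point. Glial classes line up on the oligodendrocyte-like level of their library, and excitatory neuron-like and striatal projection neuron-like nuclei stand furthest to the right.

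Within neuronal nuclei the level depended on depth. In cortex AAV-CTRL the genes summed to 1242 CPM in neuronal nuclei under 1000 UMIs, 1001 CPM from 1000, 534 CPM from 2000, 424 CPM from 4000 and 368 CPM from 8000 UMIs. The striatum AAV-CTRL nuclei gave 269, 198, 140, 116 and 95.9 CPM in the same order. Egr1 made up most of the decline, at 641 CPM in the shallowest and 119 CPM in the deepest nuclei of cortex AAV-CTRL, while Nr4a1 was at 94.0 and 79.7 CPM and Npas4 at 6.72 (2 UMIs) and 17.0 CPM. Neuronal nuclei of a single cluster with a median of 1444 and 1412 UMIs held 155 and 139 UMIs of the 10 genes per 100 nuclei in the cortex libraries, 1.28 and 1.39 times the oligodendrocyte-like level. Without this cluster and its subcortical counterpart, the neuronal level was 1.89, 2.27, 2.39 and 3.00 times the oligodendrocyte-like one.

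**Figure D4:**
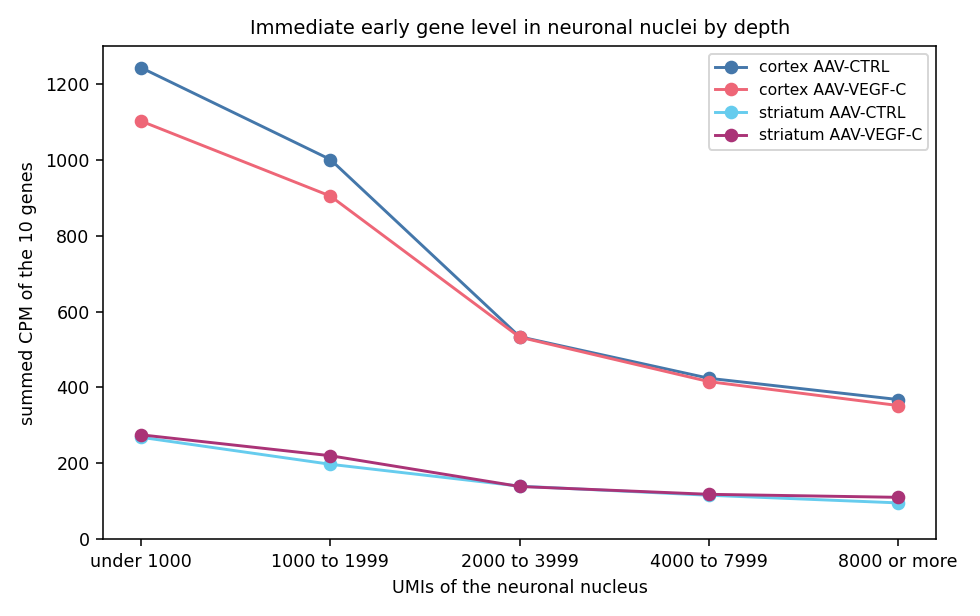
Summed CPM of the 10 genes in neuronal nuclei, by total UMIs of the nucleus, 1 line per library. All 4 lines decline with depth, the cortex lines from 1242 and 1102 CPM to 368 and 352 CPM, and the lines of a pair lie close to each other.

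A small set of neuronal nuclei held many of these UMIs each. At least 10 UMIs of the 10 genes were found in 143 of 9724 (1.47%, 1.24 to 1.73), 154 of 11541 (1.33%, 1.13 to 1.56), 16 of 10459 (0.153%, 0.0875 to 0.248) and 19 of 8405 (0.226%, 0.136 to 0.353) neuronal nuclei. These were deep nuclei, with median totals of 7546, 7744, 6871 and 7525 UMIs, and the limit of 10 was not scaled to depth. None of the 1784, 2074, 3672 and 3298 oligodendrocyte-like nuclei reached 10 UMIs, which allows a share of up to 0.207%, 0.178%, 0.100% and 0.112% (upper end of the exact 95% interval). Their median totals were 1643.5, 1646.5, 1684 and 2053 UMIs, so the 2 shares are not at matched depth. In the cortex libraries 125 and 125 of the neuronal nuclei with at least 10 UMIs were excitatory neuron-like, 2.08% and 1.77% of that class. In striatum AAV-CTRL 6 were excitatory neuron-like, 1.95% of that class, 4 striatal projection neuron-like, 0.983%, and 2 subcortical glutamatergic neuron-like, 0.0293%. In striatum AAV-VEGF-C 7 were striatal projection neuron-like, 2.30% of that class, and 8 subcortical glutamatergic neuron-like, 0.133%. In cortex AAV-CTRL the nuclei with at least 10 UMIs held 8.56% of the neuronal UMIs of the 10 genes. They held 74 of 292 Fosb and 157 of 686 Npas4 UMIs, against 441 of 8234 Egr1 UMIs. They were picked by these same UMIs, so a high share follows from the choice, and the difference between the genes was not tested. For the share of neuronal nuclei with at least 10 UMIs, the AAV-CTRL and AAV-VEGF-C intervals overlapped in both pairs.

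Detection of 3 or more of the genes in a nucleus gave a similar picture. It was seen in 19.4% and 19.5% of neuronal nuclei in the cortex libraries and 2.07% and 2.88% in the striatum libraries, beside 4.71%, 3.09%, 0.0817% and 0.212% of oligodendrocyte-like nuclei. After thinning to 1000 UMIs these were 1.5%, 1.29%, 0.0926% and 0.159% in neuronal nuclei. Oligodendrocyte-like nuclei gave 1.63%, 1.04%, 0% and 0% (0 nuclei allow up to 0.105% and 0.113%). The thinned neuronal share was thus no higher than the oligodendrocyte-like one in cortex AAV-CTRL. Thinning takes a larger part of the UMIs from the deeper neuronal nuclei, stray ones included, so this comparison cannot place neurons at background. In the striatum libraries 65.2% and 61.7% of neuronal nuclei had no UMI of the 10 genes, and the 10% of nuclei richest in them held 52.9% and 50.8% of the UMIs.

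Other inducible genes lay near the members. Of 23 further inducible transcription factors, 22 could be tested in neuronal nuclei. In the cortex libraries 0 were higher and 0 lower past the limit (median log2 ratio -0.03), against 1.21% and 1.17% of all genes. In the striatum libraries 1 was higher (median 0.02), against 2.1% of all genes. The highest in the cortex libraries were Myc (0.47), Ier2 (0.28) and Klf10 (0.21), and the lowest Klf2 (-0.30), Btg2 (-0.35, -0.51 to -0.20) and Egr2 (-0.52, -0.82 to -0.23), the EGR family member known from myelinating Schwann cells and hindbrain. In the striatum libraries Maff (0.62, from 36 and 53 UMIs, the 1 past the limit), Fosl1 (0.34) and Klf6 (0.30) were highest, and Egr2 (-0.34), Ier2 (-0.36) and Klf2 (-0.38) lowest.

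Of 34 inducible effectors and late-response genes, 33 were tested, with medians of -0.02 and 0.03. Past the limit, 1 was lower in the cortex libraries, against 1.17% of all genes in neuronal nuclei. In the cortex libraries Dusp5 (0.30), a phosphatase that switches off ERK in the nucleus, Gadd45b (0.23) and Gadd45g (0.22) were highest, and Pcsk1 (-0.28), Ptgs2 (-0.37) and Zfp36 (-0.71, from 32 and 24 UMIs, the 1 gene past the limit) lowest. In the striatum libraries Arl4d (0.35), Scg2 (0.34, 0.31 to 0.38) and Vgf (0.25, 0.20 to 0.30) were highest, the last 2 being precursors of secreted neuropeptides, and Gadd45b (-0.31), Zfp36 (-0.43) and Baz1a (-0.52) lowest. The upstream receptors, kinases and factors (35 of 37 tested) had medians of 0.0053 and -0.03 with 0 past the limit. Hras, the small GTPase above ERK, was highest in both pairs (0.43 and 0.33), with Elk1 (0.22 and 0.26) and Prkaca (0.22 and 0.31) next, and Grin2a, an NMDA receptor subunit, was among the 3 lowest in both (-0.13 and -0.18). Cacna1c (-0.09) and Map2k1 (-0.10) in the cortex libraries and Rps6ka3 (-0.15) and Ppp3ca (-0.19) in the striatum libraries made up the rest of the lowest.

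Mitochondrially encoded and heat-shock genes were read as possible signs of RNA and tissue handling, which was not itself measured. All 13 mitochondrially encoded genes were higher in AAV-VEGF-C in neuronal nuclei of both pairs, 4 and 3 of them past the limit. Over all genes in these nuclei, 1.21% and 2.1% were higher past the limit, and 1.17% and 2.16% lower. The median log2 ratios of the 13 were 0.52 and 0.51, from 5398 to 7919 CPM and from 6719 to 9384 CPM in all. The highest were mt-Co1 (0.68), mt-Co3 (0.67) and mt-Nd4l (0.65) in the cortex and mt-Nd6 (0.75), mt-Nd3 (0.72) and mt-Nd4l (0.64) in the striatum libraries; the lowest were mt-Nd2 (0.35), mt-Nd3 (0.35) and mt-Atp8 (0.31), and mt-Nd2 (0.46), mt-Atp6 (0.41) and mt-Co2 (0.38). The 12 heat-shock genes, with 0 past the limit in the cortex and 1 lower in the striatum libraries, had medians of 0.08 and 0.02, with Hspe1 (0.26), Hspa1b (0.21) and Dnajb1 (0.19) highest and Hspa1a (-0.18), Hspb1 (-0.31) and Bag3 (-0.34) lowest in the cortex libraries, and Hspe1 (0.31), Hsp90ab1 (0.31) and Hsph1 (0.11) against Bag3 (-0.19), Hspb1 (-0.30) and Hspa1a (-0.92) in the striatum libraries. In non-neuronal nuclei the mitochondrially encoded genes had smaller ratios, from 0.05 (mt-Atp8) to 0.40 (mt-Nd4l) in the cortex libraries. The striatum libraries gave -0.04 (mt-Co2) to 0.35 (mt-Nd3) in these nuclei. The part of either group of genes in the immediate early gene values was not tested.

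Across 62 class by library units of at least 100 nuclei, the members followed each other unevenly. The log2(CPM + 1) values of Egr1 and Egr3 (Pearson r = 0.915), Junb and Egr3 (0.888) and Egr3 and Arc (0.881) went together most, and those of Fos and Npas4 (0.100) and Egr1 and Npas4 (0.172) least. The 5 genes outside the lists most like the mean of the members, among 13423 genes, were Lamp5 (0.862), Cx3cl1 (0.860), Rprml (0.852), Gda (0.852) and Kcnf1 (0.850). These units share libraries, depth and stray RNA, and Lamp5 and Gda are themselves abundant in cortical neurons, so the correlations are given as a description. In neuronal nuclei of the cortex libraries the 5 had log2 ratios from 0.04 (Kcnf1) to 0.17 (Rprml), and in non-neuronal nuclei from -0.17 (Cx3cl1) to 0.19 (Rprml). In the striatum libraries they ran from -0.28 (Rprml) to 0.19 (Cx3cl1) in neuronal and from -0.41 (Gda) to -0.08 (Cx3cl1) in non-neuronal nuclei.

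The members were lower in the libraries labelled striatum, by amounts that differed between them. In neuronal nuclei of AAV-CTRL the log2 ratio of striatum over cortex was -3.0 for Egr3, -2.60 for Arc, -2.27 for Egr1, -1.70 for Fosb, -1.63 for Nr4a1, -1.57 for Junb, -1.46 for Npas4, -1.20 for Fosl2, -0.86 for Nptx2 and -0.53 for Fos. The AAV-VEGF-C libraries gave -3.30 for Egr3 and -2.43 for Arc at one end, and -0.30 (-0.44 to -0.15) for Nptx2 and -0.03 (-0.22 to 0.16) for Fos at the other, so Fos was level between the labels there. Non-neuronal nuclei showed the same range, from -3.16 for Egr3 to -0.66 for Fos in AAV-CTRL. The cells of the 2 labels differ as described above, so region, tissue piece and library cannot be told apart.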

How the data were processed

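Single-nucleus RNA sequencing was performed on 4 libraries, 1 for each virus and region label, with the 10x Genomics 3′ chemistry. The deposited values were UMI counts per gene and nucleus, made by the authors with Cell Ranger (5.0.1 per the file headers, 5.1.1 in the submitters' processing notes) on mm10 (GRCm38). The authors discarded nuclei of low UMI number and clusters of low counts; the deposited matrices hold 78728 nuclei, the number that the study gives after these filters.

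Doublets were called with the scrublet method of scanpy (1.11.5) at an expected rate of 8%, and clusters with over 40% of such calls were left out with them. In all, 5837 nuclei were left out. The rest were clustered (5000 variable genes, 50 components, 15 neighbours, resolution 1.2, then 0.8 within broad groups), without the members and the related inducible and upstream genes. Classes were named from fixed marker lists. The naming rule (reference level, number of markers needed, conditions for interneurons) was revised after the clusters' leading genes and marker counts were seen, not after ratios of the members. UMIs were summed per class and library and scaled to CPM (counts over all counts, times 1000000). Levels have exact Poisson intervals, shares exact Clopper-Pearson intervals and ratios exact conditional binomial intervals, at 95% and for counting error only; the ratio script was tested on simulated data. A ratio was called past the fold at a log2 value of 0.58 or beyond with at least 50 UMIs in the pair. For shares at matched depth, each nucleus was thinned to 1000 UMIs and shallower ones were left out. The members and lists were chosen with earlier results of these data known. The limit of 10 UMIs for a nucleus rich in these genes, the values per nucleus and above oligodendrocyte-like nuclei, and the run without the low-UMI clusters were chosen after seeing the data. All 10 members are named; of every other list, the 3 highest and 3 lowest ratios over neuronal nuclei with at least 50 UMIs in the pair.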

Additional observations from a re-analysis of the deposited data

Results flagged for a closer look

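Fos and Nptx2 lay on opposite sides of 0 in the 2 region labels: AAV-VEGF-C was below AAV-CTRL in the cortex libraries and above it in the striatum libraries, with counting intervals that exclude 0. Over neuronal nuclei the log2 ratios of Fos were -0.19 and 0.31, and those of Nptx2 were -0.26 and 0.31. Over all kept nuclei they were -0.24 and 0.18 for Fos and -0.31 and 0.16 for Nptx2. By depth class, Fos in cortex neuronal nuclei had an interval that excluded 0 only from 2000 to under 4000 UMIs (-0.64, -1.07 to -0.20). Nptx2 in striatum neuronal nuclei had one only at 8000 UMIs or more (0.71, 0.37 to 1.07). In excitatory neuron-like nuclei of these libraries Fos was at -0.06 (-0.29 to 0.16). Above the oligodendrocyte-like level per nucleus, Nptx2 in neuronal nuclei of the cortex libraries turned to 0.21 (SE 0.17), on the same side of 0 as in the striatum libraries (0.71, SE 0.16), while Fos stayed on opposite sides (-0.26, SE 0.40, and 1.28, SE 0.39). With 1 library per group the difference between the labels was not tested.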

How the results depend on the processing

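No paired analysis was possible because each group is 1 library, so no replicate could be left out either. The medians of the 10 log2 ratios were within counting error of the values above under another scaling, doublets kept, only nuclei with at least 1000 UMIs, thinning, classes made with the listed genes or from each nucleus's own markers, and without the low-UMI clusters. Those of neuronal nuclei moved to 0.28 (striatum) per nucleus without scaling, and to 0.17 (cortex) and 0.59 (striatum) above oligodendrocyte-like nuclei. At a fold limit of 0.32, 1 of the 10 genes was lower over all cortex nuclei (6.04% of all genes), 5 in non-neuronal cortex (7.53%) and 3 in non-neuronal striatum nuclei (8.92%); at a limit of 1, 0 were lower in non-neuronal cortex nuclei (0.181%). In the order of libraries used above, neuronal nuclei with 2 or more genes detected made up 45.0%, 44.6%, 7.83% and 10.6%, with 4 or more 7.73%, 7.66%, 0.746% and 0.916%, and with 3 or more after thinning 1.5%, 1.29%, 0.0926% and 0.159%. Counting the single genes with the medians, 11 of 60 values moved after thinning, 4 of 60 when nuclei were averaged on their own totals, 1 of 60 without the low-UMI clusters, 8 of 20 without scaling and 15 of 19 above oligodendrocyte-like nuclei. A level resting on 3 UMIs over a whole library equals 0.0430 to 0.0520 CPM, which limits what depth could show.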

Other observations

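A few non-neuronal nuclei also held at least 10 UMIs of the 10 genes: 0 of 6345, 0 of 7269, 2 of 10449 and 2 of 7875 in the order of libraries used above. Those of the striatum libraries had median totals of 37188 and 35929 UMIs and were endothelial-like, astrocyte-like or fibroblast-like. In striatum AAV-VEGF-C they held 14 Fosl2 UMIs and 0 Npas4 or Arc UMIs.

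Neuroblast-like nuclei of striatum AAV-CTRL held 73.2 (65.4 to 81.6) UMIs of the 10 genes per 100 nuclei, 2.98 (2.61 to 3.38) times the oligodendrocyte-like level of that library, and those of cortex AAV-CTRL 134, 1.10 (0.940 to 1.28) times. Olfactory sensory neuron-like nuclei, of which striatum AAV-CTRL held 241, had 37.8 UMIs per 100 nuclei, 1.54 times the oligodendrocyte-like level.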
